A study of Homo sapiens with 2 samples.

Results

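A set of 7 collagen genes at 5 loci was examined in a list of Myocardin chromatin immunoprecipitation peaks from A549, a human lung adenocarcinoma cell line. They are COL1A1, COL1A2, COL3A1, COL5A2, COL4A1, COL4A2 and COL23A1. A summit, the single base at the top of a peak, was assigned to a locus when it lay in the gene span or within 10 kb of either end, and 76 of the 105637 deposited summits did so. COL3A1 with COL5A2, and COL4A1 with COL4A2, are neighbours and were each taken as 1 locus. The genes were selected on summit counts and scores of this same list, so their values are a description and no test is given for them. Chromatin came from A549 cells that stably overexpressed Myocardin (MYOCD) from the vector pWPI, and was precipitated with an anti-Myocardin antibody in 1 library and with IgG in 1 library. Both libraries carry the overexpressed gene, no library of cells without it was analysed here, and neither has a replicate. The list ties no summit to either antibody, so the 2 precipitations could not be compared at any collagen gene. Each summit has a peak score given by the authors, for which the file names no unit, and the sources used here give no sequencing depth.

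Collagens are triple-helical proteins of the extracellular matrix and of the cell surface. Myocardin switches on genes of the smooth muscle and heart programmes, and reaches DNA mainly through serum response factor, which binds the CArG box. Smooth muscle cells and fibroblasts make much of the body's fibrillar collagen, whereas A549 cells are of epithelial origin. The genes fall into fibril-forming collagens (COL1A1, COL1A2, COL3A1 and COL5A2), network-forming collagens of the basement membrane (COL4A1 and COL4A2), and the membrane-anchored collagen COL23A1. All positions of summits and gene spans below are in GRCh37.

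The 76 summits were shared very unequally. COL23A1 held 39, the COL4A1 and COL4A2 locus 27, COL1A1 6, the COL3A1 and COL5A2 locus 3 and COL1A2 only 1. Of these, 68 lay inside a gene span and 8 in the 10 kb on either side. The median score was 7.84, against 8.50 over the whole list. The upper quartile of scores (12.2) was reached by 15 of the 76 (19.7%, exact Clopper-Pearson 95% interval 11.5% to 30.5%). In the whole list, in which tied scores lie at the quartile, 26.3% reached it. The interval includes that share. It treats the 76 summits as independent, although 39 and 27 of them come from single loci, so it is no test of the loci as a set. A score of 50, a level reached by 0.158% of the list, was reached by 2 of the 76, and both lay in COL23A1.

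**Figure D1:**
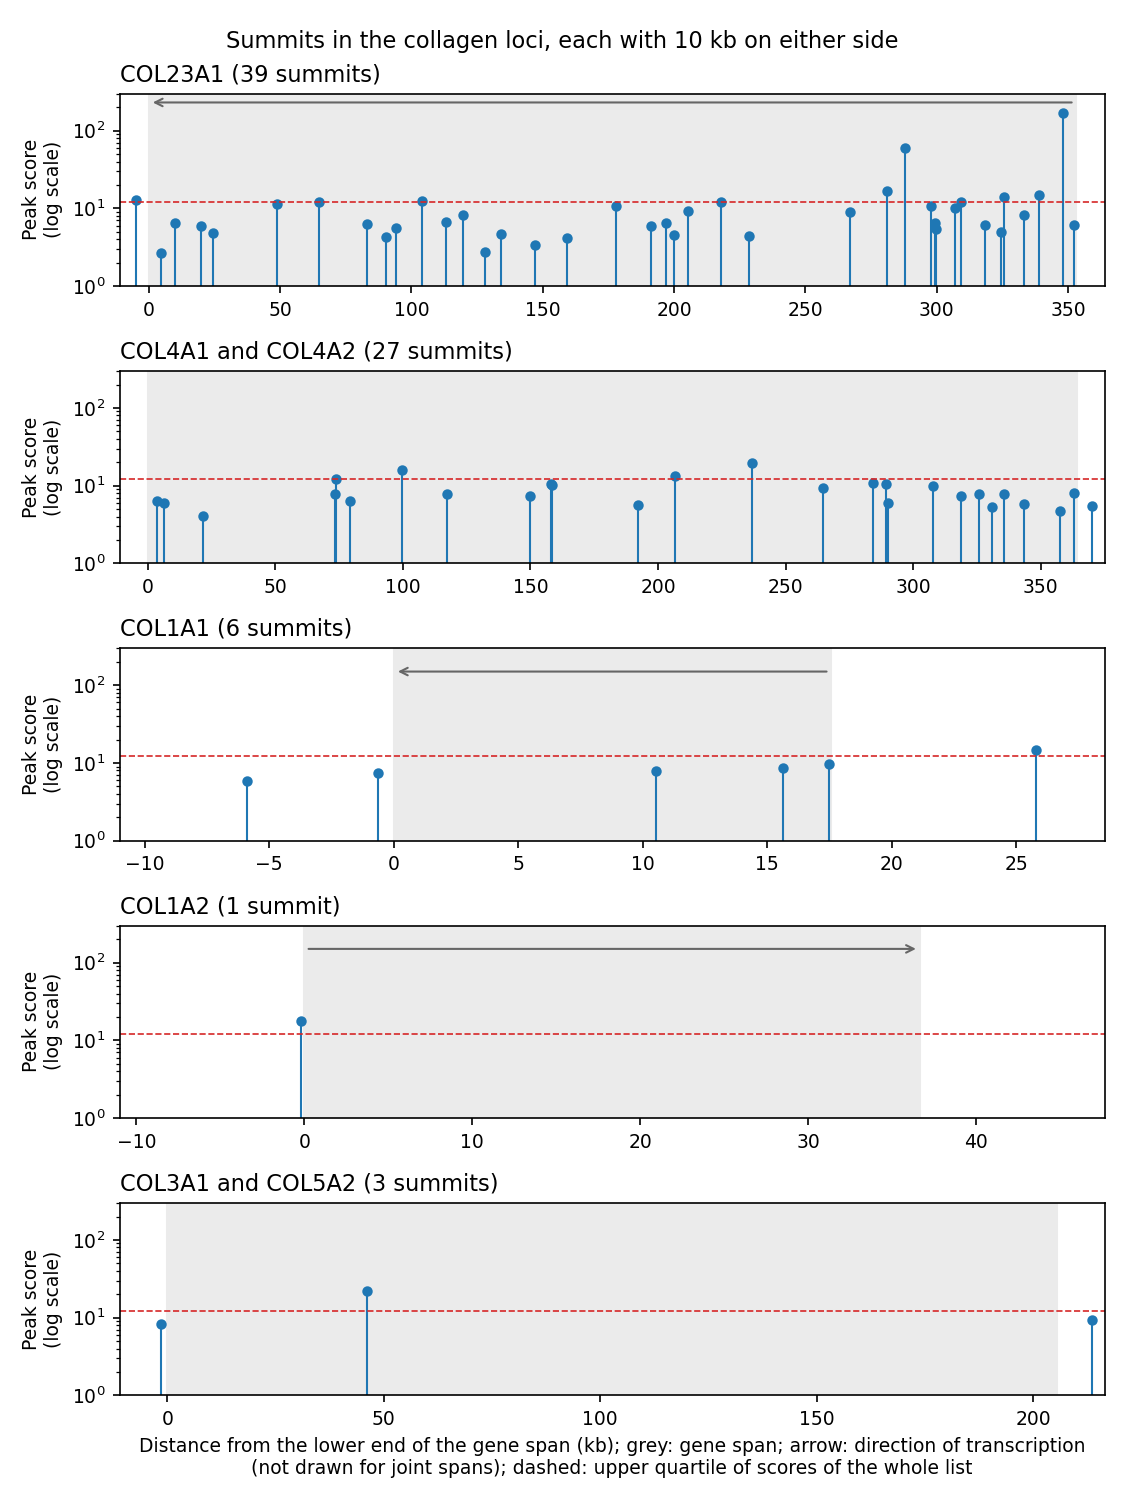
Score of each summit (log axis) against its distance in kb from the lower end of the gene span, with 1 panel per locus, the gene span in grey and the upper quartile of scores of the whole list as a dashed line. Summits crowd COL23A1 and the COL4A1 and COL4A2 locus, 2 in COL23A1 stand far above the others, and COL1A2 has a single summit at its start.

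COL1A1 encodes the main chain of type I collagen, the chief fibrillar collagen of bone, skin and tendon. Its span is chr17:48261457-48279000, on the minus strand. The summit nearest its start, at position 48278921, lay 79 bases inside the gene and had a score of 9.57. Further summits inside the gene lay at 48277081 with a score of 8.62 and at 48271995 with a score of 7.82. Past the 3′ end of the gene, toward SGCA, lay a summit at 48260824 with a score of 7.40 and one at 48255565 with a score of 5.93. The strongest of the locus, at 48287232 with a score of 14.7, lay 8232 bases upstream of the start, on the side of TMEM92. The 6 summits thus included 3 outside the gene, and the strongest was one of these.

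Chromosome 17 is rich in summits, and the count at COL1A1 was within its usual range. Against its 6 summits (exact Poisson 95% interval 2.20 to 13.1), the windows of the same length that tile chromosome 17 had a median of 3 and a range of 0 to 12, and 16.0% of them held at least as many. Of the windows within 5 Mb, 14.5% did. Poisson intervals here and below treat summits as independent and cover counting error only.

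COL1A2 encodes the partner chain of type I collagen. Its span is chr7:94023873-94060544, on the plus strand. The only summit of the locus, at 94023694, lay 179 bases upstream of the gene start and had a score of 17.6, which placed it in the top 10% of the list. No summit lay inside the gene. The next summit outside the locus lay 34.8 kb beyond its margin, with a score of 6.49. One summit is an ordinary count for this length. The windows of chromosome 7 had a median of 2, and 76.3% of them held at least 1, as did 78.9% of those within 5 Mb. The summits nearest the given starts of COL1A1 and COL1A2 thus lay 79 and 179 bases away. Those of COL23A1, COL3A1 and COL5A2 lay 519, 1432 and 7970 bases away. Adjacent summits lay a median of 7.56 kb apart on chromosome 17 and 11.7 kb on chromosome 7, which is another measure than the distance from a start. How many of all gene starts have a summit as close was not counted, so no trait of these genes can be read from it. The RefSeq gene model of COL1A2 in GRCh38.p14 is 339 bases shorter than its span given here. That of COL1A1 differs by 13 bases and that of COL23A1 by 162 bases, so distances from a start carry an uncertainty of that order.

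COL3A1, the chain of type III collagen in vessel walls and hollow organs, and COL5A2, a chain of type V collagen that regulates fibril diameter, lie tail to tail in the joint span chr2:189839046-190044605. The locus held 3 summits over 226 kb. The nearest to the start of COL3A1 lay 1432 bases upstream, at 189837614, with a score of 8.28. The nearest to the start of COL5A2 lay 7970 bases upstream, at 190052575, with a score of 9.22. Between both starts only 1 summit was listed, at 189885233, with a score of 22.0. From there to the summit beyond the start of COL5A2 the locus was free of summits. The RefSeq model of COL5A2 in GRCh38.p14, with predicted transcripts, is 409214 bases long and thus longer than the whole joint span of 205560 bases. It does not overlap COL3A1, so under that model COL5A2 starts beyond the upper end of the span. The summit at 190052575 is therefore upstream of the given start only.

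The locus lay in the lower part of the range of chromosome 2. Against its 3 summits (exact Poisson 95% interval 0.619 to 8.77), windows of equal length on chromosome 2 had a median of 6, and 83.8% of them held at least as many. The ratio of the locus to the mean of these windows was 0.354, with an interval of 0.0730 to 1.04 that includes 1. It was 0.130 (interval 0.00328 to 0.722) with no bases added to the span, where 1 summit remains, and 0.629 (0.130 to 1.84) against windows within 5 Mb. Within 5 Mb of the locus the windows had a median of 5, and 80.1% of them held at least 3 summits.

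COL4A1 and COL4A2 encode the chains that form the common type IV collagen network of basement membranes, the sheets on which epithelial cells sit. They lie head to head in the joint span chr13:110801310-111165374, and their transcripts start from a shared promoter and run in opposite directions. The bases between both starts are shown because they are common to both genes. The sequence is from RefSeq on GRCh38.p14, chr13:110307158-110307283, plus strand, and capitals mark a CCAAT box (CCAAT) and an SP1 box (GGGCGG); these coordinates belong to another build than the summits and cannot be set beside them.
COL4A1-COL4A2: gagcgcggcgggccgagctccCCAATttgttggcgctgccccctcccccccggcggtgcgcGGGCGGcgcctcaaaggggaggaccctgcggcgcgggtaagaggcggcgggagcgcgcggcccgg
The stretch is 126 bases long, with 80.2% G or C. Neither gene had a CArG box on either strand in the 250 bases before its start, and 1.16% of the 35116 RefSeq promoters of that length have one. The SMAD box (GTCTAGAC), found in 0.182% of promoters, was also not present in these letters. The SP1 box occurs in 42.6% of promoters and the CCAAT box in 32.0%.

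The COL4A1 and COL4A2 locus held 27 summits, spread over the whole joint span with 8, 6 and 12 in the lower, middle and upper of 3 equal parts and 1 beyond its upper end. The strongest, at 111038012, had a score of 19.5, followed by one at 110900756 with a score of 15.9 and one at 111007833 with a score of 13.2. In all, 4 of the 27 (14.8%, exact interval 4.19% to 33.7%) reached the upper quartile, against 23.7% on chromosome 13. A close pair at 110959293 and 110959900, 607 bases apart, had nearly equal scores of 10.5 and 10.3. The given spans do not hold the inner border between the genes, so no distance from a start is given for COL4A1 or COL4A2.

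Chromosome 13 is sparse in summits, with 19.99 per Mb of covered sequence, and the locus carried 70.3 per Mb (exact Poisson 95% interval 46.3 to 102). Only 2.85% of the windows of equal length on chromosome 13 held at least 27 summits, and their median was 6. The locus ends 4.0 Mb from the end of the chromosome, and its surroundings differ from side to side. Windows within 5 Mb toward the centromere had a median of 6 and those toward the chromosome end a median of 27. Set against all windows within 5 Mb, 24.6% of which held at least as many summits, the ratio to the mean was 1.70 (interval 1.12 to 2.48), compared with 3.56 (2.34 to 5.17) against the whole chromosome. Over upper-quartile scores alone, the ratio to the whole chromosome was 2.22, with an interval of 0.605 to 5.69 that includes 1. The count of the locus therefore equalled the median of its neighbours on the outer side.

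**Figure D2:**
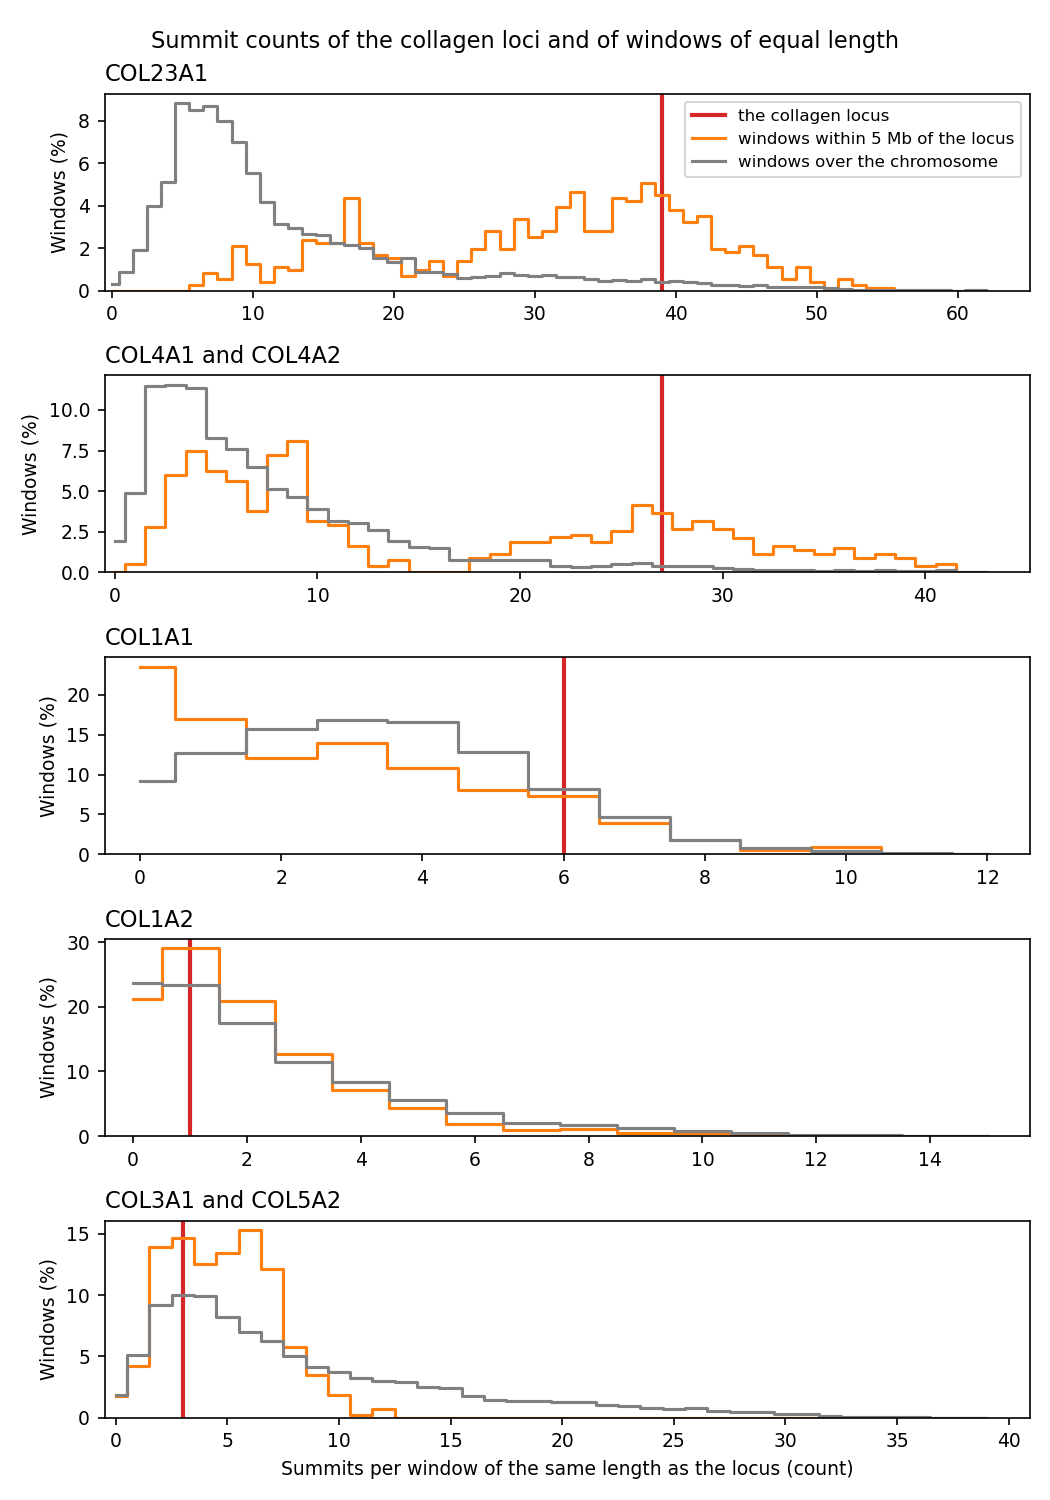
Share of windows (percent) with each number of summits, for windows of the same length as each locus, within 5 Mb of it (orange) or over its whole chromosome (grey), with the count of the locus as a red line. COL23A1 (39) and the COL4A1 and COL4A2 locus (27) lie in the upper tail of their chromosomes but well inside the range of windows within 5 Mb.

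COL23A1 encodes a collagen that stays anchored in the plasma membrane and can be shed from the cell surface. Its span is chr5:177664619-178017556, on the minus strand, and it lies between PHYKPL and CLK4. The locus held 39 summits, of which 38 lay inside the gene. The strongest, at 178012663, had a score of 169.9, ranked 1 among the 6016 summits of chromosome 5 and 13 in the whole list. It lay 4.89 kb inside the gene start, and its nearest neighbour was 4.37 kb away. The next, at 177952553, had a score of 59.2, ranked 9 on chromosome 5 and 116 in the list, and lay 65.0 kb inside the gene start. The remaining 37 summits had scores of at most 16.7 and a median of 6.42, below the chromosome median of 9.22. A crowd of weak summits with 2 very strong ones therefore describes this locus.

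The summit nearest the start of COL23A1, at 178017037, was 519 bases inside the gene and had a score of 6.16. The 250 bases before the start are shown because this summit and the strongest one of chromosome 5 lie near the start. The sequence is from RefSeq on GRCh38.p14, chr5:178590394-178590643, minus strand, written in the direction of transcription, and capitals mark SP1 boxes (GGGCGG, or CCGCCC where it lies on the other strand). These coordinates again belong to another build than the summits.
COL23A1: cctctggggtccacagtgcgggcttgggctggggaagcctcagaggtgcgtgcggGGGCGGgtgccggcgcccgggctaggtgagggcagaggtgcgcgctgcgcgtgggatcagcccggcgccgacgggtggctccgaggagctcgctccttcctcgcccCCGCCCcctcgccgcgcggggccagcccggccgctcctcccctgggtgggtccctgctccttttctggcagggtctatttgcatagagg
It has 74.4% G or C, against a median of 58.0% over all RefSeq promoters of that length, and 25 CpG steps. It holds 2 SP1 boxes, 1 on each strand, and no CArG box, SMAD box, CCAAT box or TATA box (TATAAA, present in 10.7% of promoters). The stretch ends at the gene start, so the sequence under either summit is not part of it. Of the 7 genes, 3 were in the promoter table and all 3 had no CArG box. That is the usual case, since 1.16% of all RefSeq promoters of that length have one. The stretches of COL4A1 and COL4A2 also overlap, so they are not separate cases.

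Summits ran along the whole of COL23A1. In 10 equal parts from the gene start, the gene held 7, 6, 2, 2, 5, 2, 4, 4, 2 and 4 summits. The 50% of the gene next to the start had 22 of the 38 (57.9%, exact interval 40.8% to 73.7%). That interval includes an even division of summits between the 50% next to the start and the rest, but is too wide to show one. For summits in the upper quartile of scores, it had 5 of 7 (71.4%, exact interval 29.0% to 96.3%), which also includes an even division. Of these 7 summits, 3 lay in the first of the 10 parts, which also held the most summits, at scores of 13.9, 14.8 and 169.9. The other 4 were scattered at scores of 12.2 to 59.2. The longest stretch without a summit ran for 38.5 kb, from 177892977 to 177931510, against a median distance of 7.52 kb between adjacent summits of the gene.

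**Figure D3:**
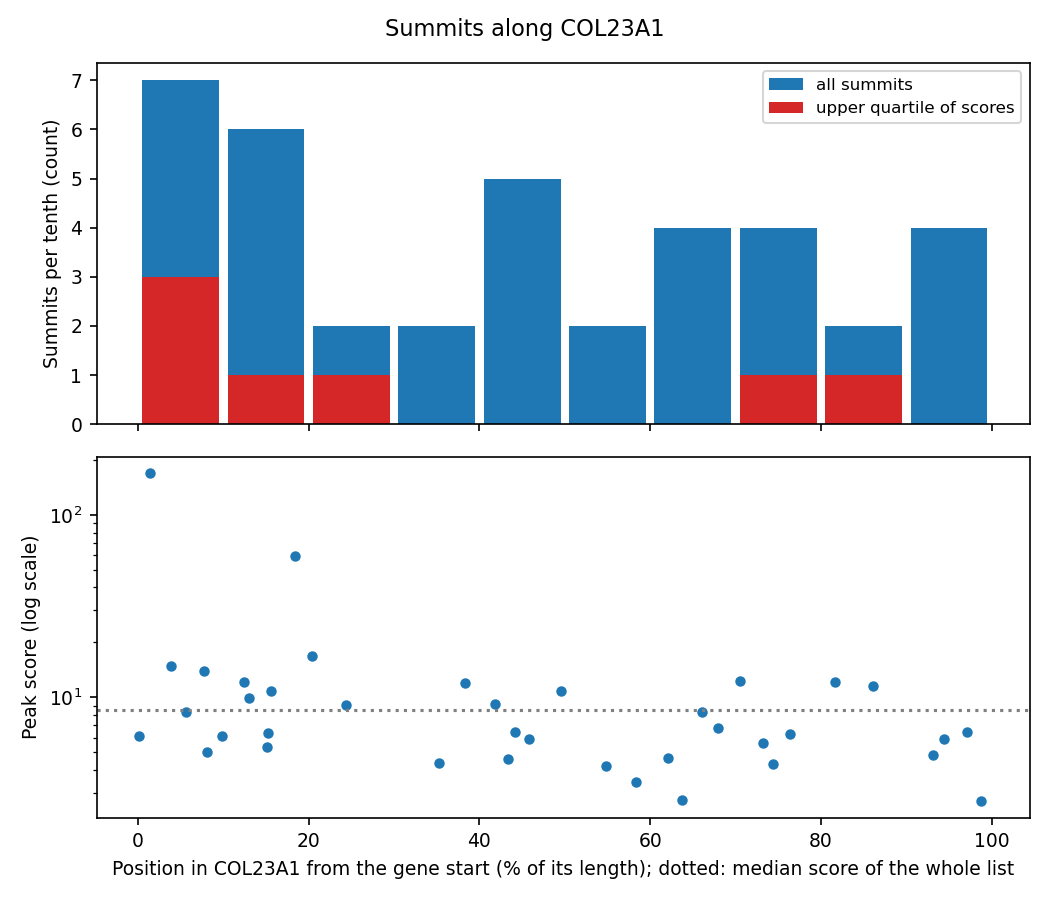
Number of summits in each of 10 equal parts of COL23A1 from the gene start (top, count, those in the upper quartile of scores in red) and score of each summit (bottom, log axis) against position in percent of the gene's length. The parts next to the start hold 7 and 6 summits and the 2 strongest, with scores of 169.9 and 59.2.

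The density of COL23A1 was 105 summits per Mb (exact Poisson 95% interval 74.4 to 143), against 33.9 per Mb on chromosome 5. Of the windows of equal length on chromosome 5, 3.72% held at least 39 summits, with a median of 9. COL23A1 ends 2.90 Mb from the end of the long arm, where summits are dense in general. Within 5 Mb the windows had a median of 33, and 27.0% of them held at least 39. The ratio to their mean was 1.27 (interval 0.905 to 1.74), compared with 3.09 (2.20 to 4.23) against the whole chromosome. Over upper-quartile scores alone, the ratio to the whole chromosome was 2.06, with an interval of 0.889 to 4.06 that includes 1. Of the 39 summits 8 (20.5%, exact interval 9.30% to 36.5%) reached the upper quartile, against 30.7% on chromosome 5, which that interval includes. Windows within 5 Mb toward the centromere had a median of 27 and those toward the chromosome end a median of 38. The count of COL23A1 was thus close to the median on the outer side and above that on the inner side. It lay within the range of all windows within 5 Mb (6 to 55).

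Adjacent summits of the loci lay a median of 8.31 kb apart, against 12.2 kb in the list, and 38.0% of the 71 distances were over 10 kb, against 56.8% in the list. Both crowded loci supply 64 of these distances, since COL1A1, COL1A2 and the COL3A1 and COL5A2 locus have few. The loci were selected on summit counts, and a crowded locus has short distances by construction. Distances across a locus margin were not counted in the loci, whereas the list uses every distance along a chromosome. The difference from the list is therefore no finding about these genes. Distances of 0.5 to 1.5 kb numbered 3 (4.23%, exact interval 0.880% to 11.9%), against 8.77% in the list. Distances under 0.5 kb also numbered 3 (4.23%, with the same interval), against 0.668% in the list. Of these last 3, the COL4A1 and COL4A2 locus had the summits at 110874508 and 110875004, 496 bases apart, with scores of 7.79 and 12.2, and the summits at 111090824 and 111091322, 498 bases apart, with scores of 10.6 and 6.06. In COL23A1 the summits at 177963865 and 177964213 were 348 bases apart with scores of 6.37 and 5.36.

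Some scores recur in many peaks of the list. The list has 19 scores that at least 150 summits share, and 29.4% of all summits carry one of them. In the collagen loci 8 of the 76 summits (10.5%) did. COL1A1 and COL1A2 had none, the COL3A1 and COL5A2 locus had 2 of 3, the COL4A1 and COL4A2 locus had 4 of 27, and COL23A1 had 2 of 39. Why scores recur was not tested.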

How the data were processed

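Peaks were taken from 1 deposited list with chromosome, start, end, strand and peak score, per the file headers. Every interval is 1 base wide. The score is the value the authors deposited for each peak, with no unit named, and was used only within the list. The other columns used are genome positions. The name of the list refers to MACS; its version and threshold, the aligner and the use of the IgG library are not stated there or in the labels. The submitters' processing notes name CASAVA 1.4 and the builds mm9 and GRCh38.p12. Positions lay past a chromosome end for 13627 summits on mm9, 1093 on GRCh38 and 0 on GRCh37 (chromosome lengths from GenomeInfoDb 1.38.1), so GRCh37 was used.

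Gene spans were given in GRCh37 with the gene list; no GRCh37 annotation was used, and strands are textbook knowledge. Gene names of neighbours and promoter sequences came from RefSeq tables of GRCh38.p14, in which 3 of the 7 promoters were found. Summits were counted in each span with 10 kb on either side. Windows of equal length tiled the chromosome at a step of 10 kb over covered sequence, from first to last summit without stretches of at least 1 Mb free of summits. All such windows were counted, the locus included, in place of random ones. The windows within 5 Mb left the locus out. The counting of windows was checked on simulated positions spread at random. They lack the crowding of the real list, so they check the arithmetic only. Analyses used Python 3.11.15 with scipy 1.17.1. The genes and analyses were chosen with earlier results of these data known, and the list without the 2 strongest summits of COL23A1 and the division of windows by side were added after its values were seen. The named genes are the 7 collagen genes, and summits named by position are the strongest of each locus, the nearest to each start, those of the 3 sparse loci and the close ones.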

Additional observations from a re-analysis of the deposited data

How the results depend on the processing

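The ratio of summits to the mean of windows of equal length varied with the setting at all 5 loci. It left the interval of its main setting (10 kb added, all summits, whole chromosome) at COL1A2, COL23A1 and the COL4A1 and COL4A2 locus. At COL1A1 and at the COL3A1 and COL5A2 locus it stayed within that interval. For COL1A1 it was 1.79 (interval 0.658 to 3.90) and over the upper quartile of scores 1.15, which rests on 1 summit. For COL23A1 it was 2.06 (0.889 to 4.06) over the upper quartile and 1.27 (0.905 to 1.74) against windows within 5 Mb. For the COL4A1 and COL4A2 locus it was 2.22 (0.605 to 5.69) and 1.70 (1.12 to 2.48) in these settings. These intervals cover counting error only and are no test, since the loci were selected on these counts. For the COL3A1 and COL5A2 locus it was 0.130 (0.00328 to 0.722) with no bases added and 0.629 within 5 Mb. For COL1A2 it was 0 with no bases added, since the only summit lies outside the gene, and 1.62 (0.0409 to 9.0) over the upper quartile, on the other side of 1 from its 0.433 (0.0110 to 2.41) over all summits; both rest on that summit. Relative to the whole list, the share of upper-quartile scores at COL1A1 was 0 with no bases added (3 summits) and 0 for the top 10% of scores (6 summits), that of COL1A2 was 9.99 for the top 10% (1 summit), and that of COL3A1 and COL5A2 was 3.81 with no bases added (1 summit). Counting only the upper quartile, the nearest summit lay 8232 bases from the start of COL1A1, 29744 from COL3A1, 157432 from COL5A2 and 4893 from COL23A1, while that of COL1A2 was the same summit. At COL23A1 and at COL4A1 and COL4A2 the share of upper-quartile scores was below that of the chromosome (20.5% against 30.7%, and 14.8% against 23.7%), which by construction lowers the upper-quartile ratio. The exact intervals of these shares (9.30% to 36.5%, and 4.19% to 33.7%) include those of the chromosomes. The mean of windows within 5 Mb was 30.6 and 15.9 summits there, against 12.6 and 7.59 over the chromosome. The margin of 10 kb was close to single summits. The last one inside at COL1A1 lay 1.77 kb within the upper margin (score 14.7). At the opposite end, the nearest one outside lay 2.33 kb beyond the lower margin (score 5.5). At COL4A1 and COL4A2 the nearest one outside lay 0.577 kb beyond the lower margin (score 8.28). No paired analysis was possible because each antibody has 1 library and the list assigns no value to either. No replicate could be left out, and no depth was at hand to set a limit.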

Other observations

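RefSeq on GRCh38.p14 lists other genes that overlap these collagen genes, among them COL4A2-AS1 and COL4A2-AS2 in COL4A2 and the microRNA genes MIR1245A, MIR1245B and MIR3606 in COL3A1, so a summit inside a collagen gene is not thereby assigned to that gene's own promoter.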
